A study of Mus musculus with 10 samples.

Results

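The elastic fibre genes described here are 10 genes whose products build or directly decorate elastic fibres: *Eln*, *Fbn1*, *Fbn2*, *Mfap2*, *Mfap4*, *Mfap5*, *Fbln1*, *Fbln2*, *Fbln5* and *Efemp2*. They were chosen by name, as the Ensembl identifiers in the raw count table that map to these symbols, and all 10 were found among its 53465 genes. RNA was sequenced from the pinna prominence, the embryonic outer ear, of mouse embryos at E14.5, in days of embryonic development. There were 5 wild-type (WT) libraries and 5 labelled as knock-in. All were on the C57BL/6J background, and the knock-in embryos, called mEC1dup/dup, carried an additional copy of mEC1, an enhancer of the transcription factor gene *Hmx1*, on each allele. The comparison addressed here is whether these fibre genes differed in level between the 2 genotypes in whole pinna tissue.

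An elastic fibre has a core of crosslinked elastin and a sheath of microfibrils. Microfibrils are beaded polymers of fibrillins, onto which microfibril-associated glycoproteins bind. Fibulins connect elastin to that scaffold and to the enzymes that crosslink it, and microfibrils also hold latent TGF-β through its binding proteins. The external ear owes its springiness to elastic cartilage, and its dermis and vessels also hold elastic fibres.

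None of the 10 genes passed the test, and 9 of the 10 had a negative log2 fold change. The lowest estimate belonged to *Mfap5*, at -0.51, and the highest to *Mfap2*, at 0.05. A gene was called when its p in edgeR's quasi-likelihood test, after Benjamini-Hochberg adjustment, was at most 0.05 and its average log2 CPM was at least 1, CPM being counts scaled to a common library size. Over the 16426 genes tested, 1.81% were called lower and 0.834% higher in mEC1dup/dup, or 2.65% in either direction. With no adjustment, 3 members had edgeR p under 0.05, *Mfap5*, *Eln* and *Fbn2*, all with negative estimates, against 9.08% of all tested genes lower, and 16.2% in either direction, at that threshold. DESeq2 called 1 of the 10, *Mfap5*, beside 3.1% of all tested genes lower, and limma-voom called 0, beside 1.68%. The median log2 fold change of the members was -0.14 and that of all genes tested was -0.0041. WT and mEC1dup/dup libraries overlapped for all 10 genes, while 2.75% of all tested genes were lower and 2.33% higher without overlap.

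The libraries held 17461544 to 18462073 counts each, with overlapping ranges in both genotypes. *Hmx1*, the gene controlled by the duplicated enhancer, rose from 26.6 ± 3 to 66.2 ± 9.11 CPM (SD, n = 5 each). No WT library exceeded 5 counts of *Xist*, the female-expressed transcript that silences an X chromosome, while the mEC1dup/dup libraries held 12812, 19040, 18165, 2096 and 0. Transcripts of 4 Y-linked genes summed to 3088 to 3658 counts in WT and to 639, 36, 31, 3024 and 3293 in mEC1dup/dup. The study's reporting describes independent embryos, 5 of each genotype, whereas replicates 1 and 4 of mEC1dup/dup held both *Xist* and Y-linked RNA. How that came about was not tested, and values are given per library. Sex and genotype cannot be fully told apart here. Without those 2 libraries no member was called, and 9 of 10 estimates were negative (median -0.18), while 0.625% of the 16812 genes then tested were called lower. Embryonic globins made up 21.3 ± 2.07% of globin counts in WT and 34.3 ± 1.22% in mEC1dup/dup, without overlap. Their part in the results was not tested, since the fit given at the close cannot tell this share from genotype. WT replicate 4 stood apart for the fibre genes: it was the lowest WT library for 10 of the 10 members, whereas it was the lowest for 26.7% of all tested genes. It was the highest WT library for 0 members and for 28% of all tested genes, so it departed in both directions. Results are therefore given with and without it.

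**Figure D1:**
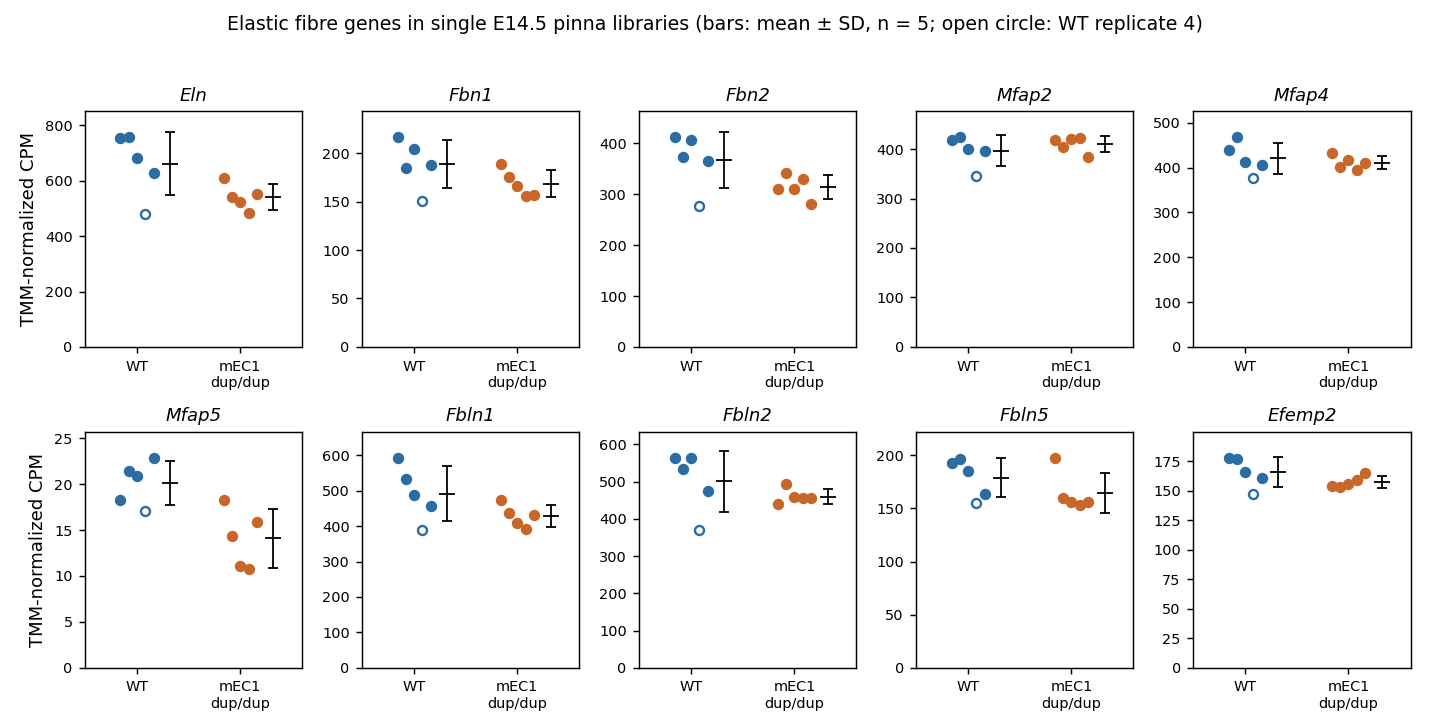
Each panel plots 1 elastic fibre gene in CPM for the 5 WT and 5 mEC1dup/dup libraries; points are libraries, bars are the mean and SD, and WT replicate 4 is drawn open. WT replicate 4 is the lowest WT point in every panel, and the genotypes overlap in all of them.

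*Eln* encodes tropoelastin, the monomer of the elastic core. It lies on the minus strand at chr5:134731445-134776322 (GRCm39, GENCODE vM39). At 661 ± 114 CPM in WT it was in the 99.1st percentile of average log2 CPM among tested genes. The 5 WT libraries measured 753, 759, 682, 481 and 629 CPM, and the 5 mEC1dup/dup libraries 610, 540, 522, 482 and 552. The 4 WT libraries other than replicate 4 were above all mEC1dup/dup libraries, and replicate 4 was level with the lowest of them. The log2 fold change was -0.29 (SE 0.11, 95% interval -0.52 to -0.06) with an adjusted p of 0.184 in edgeR's quasi-likelihood test. Without WT replicate 4 it was -0.39 (SE 0.07, adjusted p = 0.00646, edgeR). *Eln* was also called in a fit with replicate number as a block (-0.27), although the numbers gave no known pairing.

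The 250 bases before the start of a gene's canonical transcript were read from GRCm39 for all members and searched on both strands for 4 short motifs. They were CAAGTG, the core bound by HMX homeodomains; GGGCGG, the GC box; TATAAA, the TATA box; and TGANTCA, the AP-1 site. The *Eln* and *Fbln1* sequences are shown because this pair of members varied together most closely among libraries, and the *Fbln5* sequence because it holds motif matches. All are written 5′ to 3′ on the gene's own strand, at chr5:134776323-134776572 (minus) for *Eln*, chr15:85089900-85090149 (plus) for *Fbln1* and chr12:101785430-101785679 (minus) for *Fbln5*. Capitals mark GC box letters on either strand.
Eln promoter: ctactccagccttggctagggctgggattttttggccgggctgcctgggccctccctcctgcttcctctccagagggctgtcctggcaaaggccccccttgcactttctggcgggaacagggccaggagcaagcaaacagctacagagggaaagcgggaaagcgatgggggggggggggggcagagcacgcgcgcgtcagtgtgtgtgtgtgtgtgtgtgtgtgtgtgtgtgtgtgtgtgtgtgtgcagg
Fbln1 promoter: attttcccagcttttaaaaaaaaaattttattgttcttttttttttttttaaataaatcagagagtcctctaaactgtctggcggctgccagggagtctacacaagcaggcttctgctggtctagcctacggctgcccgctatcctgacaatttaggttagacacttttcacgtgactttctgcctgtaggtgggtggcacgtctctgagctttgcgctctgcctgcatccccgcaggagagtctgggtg
Fbln5 promoter: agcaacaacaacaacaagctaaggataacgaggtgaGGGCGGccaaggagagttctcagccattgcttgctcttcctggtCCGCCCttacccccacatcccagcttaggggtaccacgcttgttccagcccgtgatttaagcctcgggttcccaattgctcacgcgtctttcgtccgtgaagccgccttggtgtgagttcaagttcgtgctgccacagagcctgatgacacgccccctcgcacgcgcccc

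CAAGTG was present in none of the 10 member promoters and in 11% of the promoters of 14477 protein-coding genes tested. TATAAA likewise had no match in the members and occurred in 7.3% of all promoters. GGGCGG was found in 5 members, with 4 matches in *Efemp2*, 2 each in *Fbln5* and *Mfap4* and 1 each in *Fbn2* and *Mfap2*, and in 48.2% of all promoters. TGANTCA occurred in *Mfap5* alone among the members, with 1 match, and in 4.63% of all promoters. These are matches of letters in 1 window per gene. The *Eln* and *Fbln1* promoters held none of the 4 motifs.

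*Fbn1* and *Fbn2* encode fibrillin-1 and fibrillin-2, the proteins that polymerise into microfibrils, fibrillin-2 being the more embryonic form. *Fbn2* lies at chr18:58141695-58343645 and *Fbn1* at chr2:125142514-125349913, both on the minus strand. *Fbn2* measured 413, 374, 407, 277 and 366 CPM in WT and 310, 341, 310, 330 and 281 in mEC1dup/dup. All WT libraries but replicate 4 were above the highest mEC1dup/dup library. The log2 fold change of *Fbn2* was -0.22 (SE 0.09, 95% interval -0.42 to -0.03; adjusted p = 0.238, edgeR), and -0.31 (SE 0.06, adjusted p = 0.00818) without WT replicate 4.

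*Fbn1* measured 217, 185, 204, 151 and 188 CPM in WT and 189, 175, 166, 156 and 157 in mEC1dup/dup. Its genotypes overlapped beyond replicate 4, since mEC1dup/dup replicate 1 exceeded WT replicates 2 and 5. Its log2 fold change was -0.16 (SE 0.08, 95% interval -0.35 to 0.02; adjusted p = 0.364, edgeR), and -0.24 (adjusted p = 0.0453) without WT replicate 4. Of the exonic bases of *Fbn1*, 20.1% overlap an antisense gene, *Gm9913*, which itself had 3 to 19 counts a library; with no stated strand setting, reads there cannot be told apart. The ratio of *Fbn2* to *Fbn1* counts was 1.94 ± 0.0718 in WT and 1.87 ± 0.178 in mEC1dup/dup (n = 5 each; two-sided exact permutation p = 0.437, adjusted over 4 ratios 0.437). The mean log2 ratios differed by -0.06, which was within the spread between libraries, and the mEC1dup/dup ratios covered the WT range of 1.84 to 2.02.

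*Mfap2* and *Mfap5* encode MAGP-1 and MAGP-2, small glycoproteins that bind fibrillin, and *Mfap4* encodes a fibrinogen-domain glycoprotein that binds elastin and fibrillin. *Mfap5* (chr6:122470878-122508875, plus strand) had the lowest level and the lowest fold change of the family. It had 317, 387, 373, 308 and 414 counts in WT and 320, 261, 205, 201 and 293 in mEC1dup/dup. In CPM these were 18.3, 21.4, 20.9, 17.1 and 22.9 against 18.3, 14.4, 11.1, 10.8 and 15.9. Only mEC1dup/dup replicate 1 reached the WT range, and replicates 3 and 4 were the lowest. Its log2 fold change was -0.51 (SE 0.14, 95% interval -0.81 to -0.21). In edgeR's quasi-likelihood test the adjusted p was 0.0703. It was called without WT replicate 4 (-0.57, SE 0.14, adjusted p = 0.0353) and without mEC1dup/dup replicate 1 (-0.62, adjusted p = 0.0238), and in no other fit that left out 1 library. A fit with replicate number as a block called it too (-0.53).

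*Mfap2* and *Mfap4* had estimates near 0. *Mfap2* (chr4:140737729-140743295) measured 418, 425, 400, 345 and 396 CPM in WT and 418, 405, 420, 423 and 383 in mEC1dup/dup. For *Mfap2* the log2 fold change was 0.05 (SE 0.05, 95% interval -0.07 to 0.16; adjusted p = 0.73, edgeR), and -0.00 without WT replicate 4. *Mfap4* (chr11:61376212-61379727) measured 439, 469, 412, 377 and 406 CPM in WT and 433, 401, 416, 395 and 410 in mEC1dup/dup. Its log2 fold change was -0.03 (SE 0.05, 95% interval -0.15 to 0.08; adjusted p = 0.808, edgeR). The libraries of both genotypes were intermixed for both genes. Exons of *Mfap4* overlap those of *Mapk7* over 3.83% of their length, and *Mapk7* had 2489 to 3324 counts a library.

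The 2 MAGP genes were set against each other within each library. The ratio of *Mfap5* to *Mfap2* counts was 0.0508 ± 0.00508 in WT (0.0439 to 0.0579) and 0.0346 ± 0.00832 in mEC1dup/dup (0.0256 to 0.0437). Every WT library had a higher ratio than every mEC1dup/dup library, although the nearest libraries, both numbered 1, differed only in the last digit given. The mean log2 ratio differed by -0.58 (two-sided exact permutation p = 0.00794, the smallest that 5 libraries against 5 allow; adjusted over the 4 ratios 0.0318). The adjusted permutation p was between 0.0952 and 0.127 when any 1 WT library was left out, with log2 differences of -0.64 to -0.54. It stayed at most 0.05 when any 1 mEC1dup/dup library was left out. Leaving out a library cannot make the genotypes overlap, so they stayed separate in all these fits. The adjusted permutation p was 0.0714 without mEC1dup/dup replicates 1 and 4, with a difference of -0.58. The unadjusted permutation p there, 0.0179, was the smallest that the libraries left allow.

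**Figure D2:**
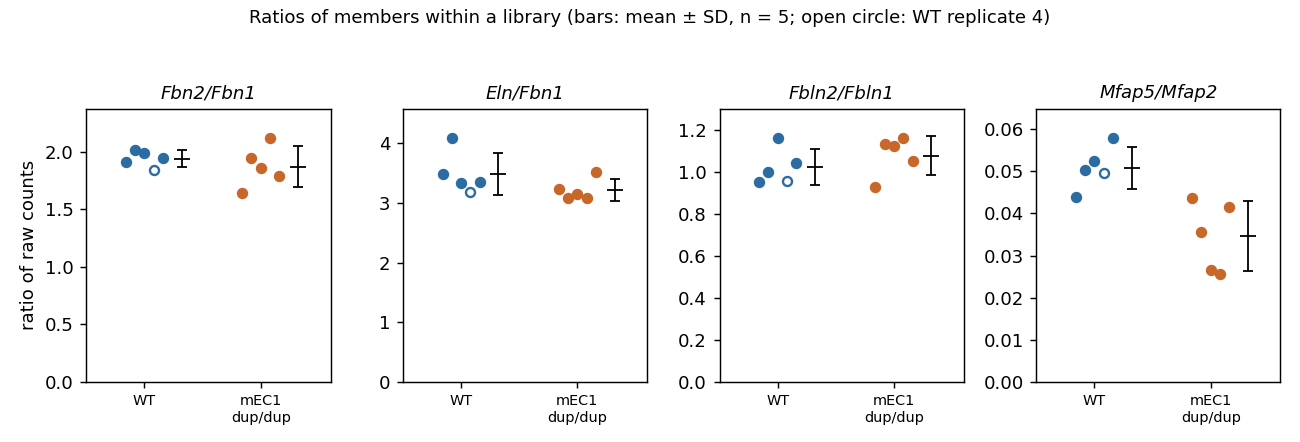
Each panel plots 1 within-library ratio of raw counts, on a linear axis from 0, for the 5 WT and 5 mEC1dup/dup libraries; points are libraries, open for WT replicate 4, and bars are the mean and SD. The *Mfap5*/*Mfap2* panel separates the genotypes by a narrow gap (log2 difference -0.58), and the other 3 panels overlap.

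The fibulins link the parts of the fibre. *Fbln5* and *Efemp2* (fibulin-4) are both needed to assemble elastin in mice and bring lysyl oxidase to it, whereas fibulin-1 and fibulin-2 bind elastin, fibrillin and basement membrane proteins. *Fbln1* (chr15:85090150-85170737) measured 594, 532, 488, 388 and 458 CPM in WT and 474, 437, 409, 392 and 433 in mEC1dup/dup. The log2 fold change of *Fbln1* was -0.20 (SE 0.09, 95% interval -0.40 to 0.00; adjusted p = 0.315, edgeR), and -0.28 (adjusted p = 0.0452) without WT replicate 4. *Fbln2* (chr6:91189437-91249522) measured 565, 533, 565, 370 and 475 CPM in WT and 439, 493, 458, 455 and 456 in mEC1dup/dup. Both genes had their highest values in WT replicates 1 to 3 and their lowest in WT replicate 4. The log2 fold change of *Fbln2* was -0.12 (SE 0.09, 95% interval -0.33 to 0.08; adjusted p = 0.576), and -0.22 (adjusted p = 0.0323) without that library.

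*Fbln5* (chr12:101712556-101785429) ranged from 155 to 197 CPM in WT and from 153 to 198 in mEC1dup/dup. Its log2 fold change was -0.12 (SE 0.08, 95% interval -0.29 to 0.06; adjusted p = 0.523, edgeR). The 198 CPM of mEC1dup/dup replicate 1 stood above the other 4, which reached at most 160. *Efemp2* (chr19:5523975-5532545) ranged from 147 to 178 CPM in WT and from 153 to 165 in mEC1dup/dup, with a log2 fold change of -0.07 (SE 0.05, 95% interval -0.18 to 0.03; adjusted p = 0.517). Neither was called without WT replicate 4 (adjusted p = 0.253 for *Fbln5* and 0.127 for *Efemp2*). The ratio of *Fbln2* to *Fbln1* counts was 1.02 ± 0.0844 in WT and 1.08 ± 0.0937 in mEC1dup/dup (n = 5 each; exact permutation p = 0.365, adjusted 0.437). That of *Eln* to *Fbn1*, the core against the sheath, was 3.49 ± 0.353 and 3.21 ± 0.178 (exact permutation p = 0.135, adjusted 0.27).

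**Figure D3:**
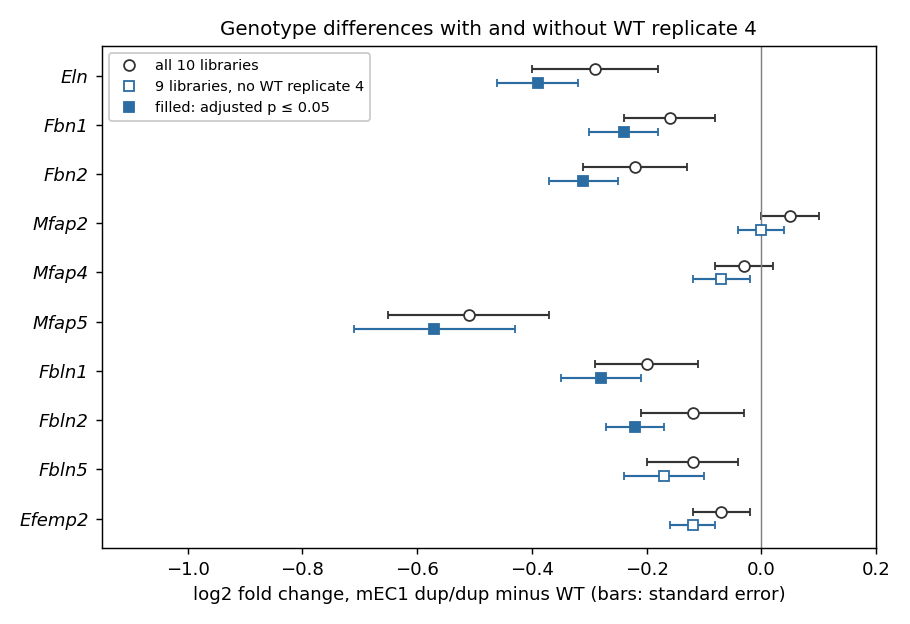
Log2 fold change (mEC1dup/dup against WT) of the 10 elastic fibre genes from edgeR's quasi-likelihood fit (bars are standard errors), over all 10 libraries (circles) and over 9 without WT replicate 4 (squares, filled where the gene was called). With 10 libraries no member was called, and with 9 libraries 6 members were called lower.

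Leaving out WT replicate 4 raised the count of members called lower from 0 to 6 of 10: *Eln*, *Fbn1*, *Fbn2*, *Fbln1*, *Fbln2* and *Mfap5*. Over the 16593 genes tested without it, 2.87% were called lower and 1.08% higher. *Eln*, *Fbn2* and *Mfap5* then no longer overlapped between genotypes, as was so for 4.66% of all tested genes in that direction and 3.56% in the other, and the median of the members was -0.23. This library was singled out after its values had been seen, and since it was the lowest WT library in all 10 genes, leaving it out raised their WT means. The summed CPM of the 10 genes was 3790, 3670, 3530, 2710 and 3270 in the 5 WT libraries, and 2960 to 3240 in the mEC1dup/dup libraries. WT replicate 4 was thus below every library of either genotype in summed level, and the SD was 430 CPM in WT against 113 in mEC1dup/dup. No other library left out brought the count above 1.

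**Figure D4:**
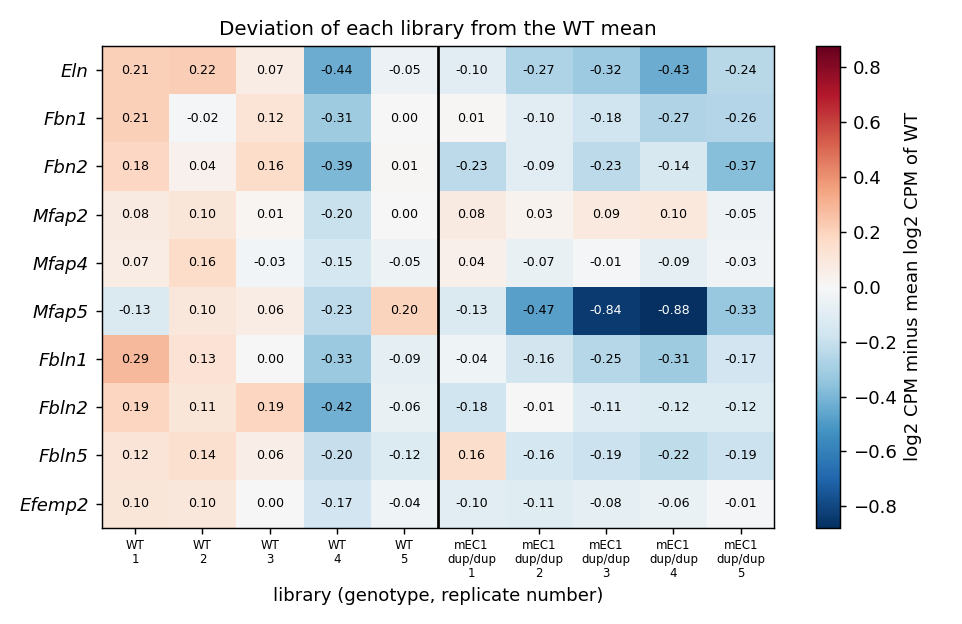
Colour and number give each library's log2 CPM minus the WT mean for each elastic fibre gene (rows), with libraries by genotype and replicate in columns. WT replicate 4 is negative for all 10 genes, and the lowest cells are *Mfap5* in mEC1dup/dup replicates 3 and 4.

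In bulk tissue, fewer cells of a type and less RNA per cell cannot be told apart, so markers of the cells present were measured beside the fibre genes. The summed level of 8 fibroblast genes ranged from 13000 to 21100 CPM in WT and from 13800 to 15500 in mEC1dup/dup. Most of it was *Col1a1*, *Col1a2* and *Col3a1*, with WT means of 5610, 4720 and 5530 CPM. Of the 8 genes, 2, *Lum* and *Dpt*, were called lower, and 2, *Pdgfra* (0.08) and *Prrx1* (0.07), had positive estimates. WT replicate 4 had the lowest WT sum for fibroblasts and the lowest WT value for 6 of the 8 genes. Its sums were also the lowest in WT for smooth muscle and pericytes (643 of 643 to 781 CPM; 672 to 769 in mEC1dup/dup; 1 of 7 tested genes called lower) and for endothelium (466 of 466 to 576; 485 to 548; 0 of 6), and for melanocytes (49.4 of 49.4 to 72.2; 49 to 61.1). By contrast its sum was the highest in WT for Schwann cells (230 CPM) and red blood cells (1020), and the second highest for skeletal muscle (1320) and for perichondrium and tendon (352). The smooth muscle gene *Tagln* was counted at no more than 0.554 CPM in either genotype, but 66.7% of its exonic bases overlap other genes, so its count may not give its level. Chondrocyte genes summed to 5120 to 8340 CPM in WT and 2230 to 6620 in mEC1dup/dup, with 0 of 7 called. The 2230 was mEC1dup/dup replicate 1, and the median sums were 5550 in WT and 5260 in mEC1dup/dup. Estimates were negative for 6 of the 7 genes. Lower calls were also made for 3 of 7 perichondrium and tendon genes, 3 of 8 skeletal muscle genes and 3 of 6 epithelial genes. Not all genes of these lists went that way. Estimates were positive for 3 perichondrium and tendon genes, 2 skeletal muscle genes and 1 epithelial gene, with 0 called higher. In each of the Schwann cell, melanocyte, macrophage and red blood cell lists 0 of 4 were called. Beside all these counts, 1.81% of all tested genes were called lower. The part of these cell types in the fibre gene values was not tested.

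Levels between genes were compared as CPM per kilobase of the canonical transcript. In WT, *Mfap2* was highest at 370 ± 29.2 CPM per kilobase, followed by *Mfap4* at 244 ± 20.3, *Fbln1* at 211 ± 33.3 and *Eln* at 165 ± 28.5. *Fbln2* (105 ± 17.2), *Efemp2* (74.7 ± 5.74), *Fbn2* (33 ± 4.89), *Fbln5* (28.8 ± 2.94), *Fbn1* (15.7 ± 2.07) and *Mfap5* (4.63 ± 0.55) came next in that order. The order was the same in mEC1dup/dup, from *Mfap2* at 382 ± 15.5 to *Mfap5* at 3.25 ± 0.729. In WT, the ranges of neighbours overlapped for *Mfap4* and *Fbln1*, *Fbln1* and *Eln*, *Fbln2* and *Efemp2*, and *Fbn2* and *Fbln5*. The other 5 neighbouring pairs did not overlap, so the small sheath glycoprotein genes stood at both ends of the order. With the length of all annotated exons joined, *Mfap4* (179) was above *Mfap2* (113) and *Fbln5* (24.5) above *Fbn2* (18.7), so these orders depend on the transcript taken.

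**Figure D5:**
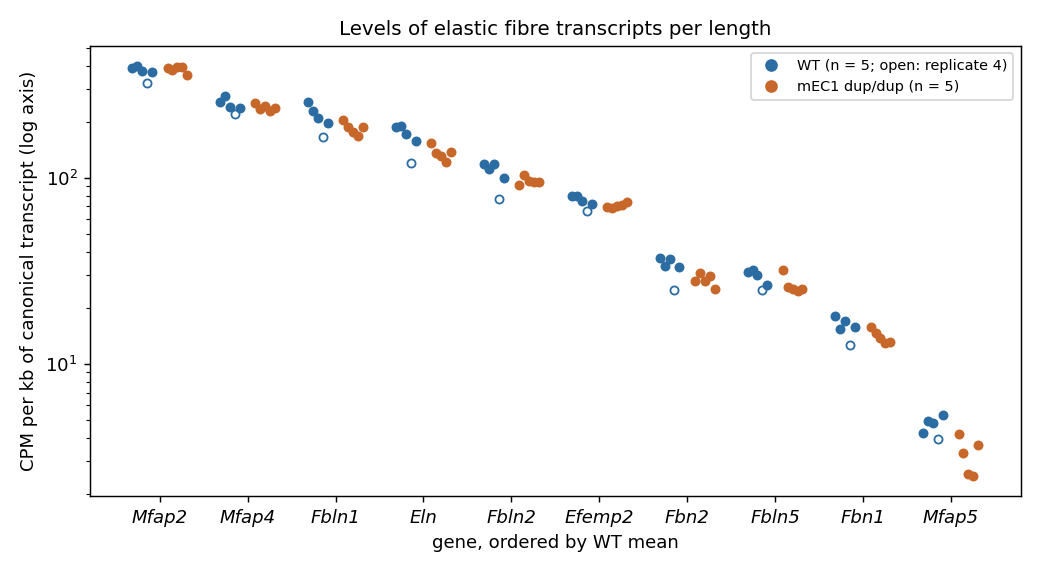
Level of each elastic fibre gene in CPM per kilobase of canonical transcript, on a log axis, for each WT and mEC1dup/dup library (points, open for WT replicate 4), ordered by the WT mean. *Mfap2* is highest (370 in WT) and *Mfap5* lowest (4.63), and the order is the same in both genotypes.

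Pairs of members were compared across libraries after each genotype's mean was removed. The 45 pairs had a median Pearson r of 0.72 (0.06 to 0.95) over the 10 libraries, and all 45 were positive. Within WT alone 45 of the 45 were positive, and within mEC1dup/dup alone 21 of the 45, each over 5 libraries. Without WT replicate 4 the median was 0.28 (-0.45 to 0.91), with 37 positive. *Eln* and *Fbln1* were the closest pair, at 0.95 with that library and 0.91 without it. *Mfap5* was the least like the others, with r from 0.06 with *Mfap2* to 0.56 with *Fbln5*. The libraries were of similar depth but differed in their marker sums, so these correlations are a description of 10 libraries only.

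Of the 14084 genes compared in this way, those most like *Eln* were *Col6a2* (0.986) and *Col6a1* (0.985), which encode chains of type VI collagen, then *Crybg3* (0.983), *Ccdc80* (0.980) and *Egln1* (0.963). *Fbln1* ranked 10th for *Eln*, at 0.953, and *Mfap4* 85th, at 0.901. Without WT replicate 4 these 5 genes had r from 0.878 (*Egln1*) to 0.986 (*Ccdc80*), *Fbln1* 0.914 and *Mfap4* 0.842, whereas *Fbn2* went from 0.693 to -0.065. Ranks for *Eln* then changed. *Ccdc80* was 1st, *Col6a1* 4th, *Col6a2* 6th, *Crybg3* 13th and *Egln1* 75th, with *Fbln1* 34th and *Mfap4* 148th. Among the genes most like *Mfap5* were *Plin3* (0.942), *Deptor* (0.930), *Rgs9bp* (0.928) and *Gm20667* (0.917), none of which is an elastic fibre gene. Without WT replicate 4 these 4 had r from 0.922 (*Gm20667*) to 0.973 (*Deptor*).

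The wider elastic fibre pathway was taken as 7 lists holding 62 genes, of which 59 were tested and 2 were called, both lower. This was 3.39% of those tested, beside 1.81% of all tested genes called lower. The first was *Ltbp2*, a latent TGF-β binding protein family member that associates with fibrillin microfibrils and does not itself bind TGF-β. It went from 19.7 ± 5.03 CPM (12.9 to 26.1) in WT to 10.2 ± 2.21 (8.25 to 14) in mEC1dup/dup (log2 fold change -0.94, SE 0.18, adjusted p = 0.0162, edgeR). Its call was lost without mEC1dup/dup replicate 3 (adjusted p = 0.0566), where the log2 fold change was -0.93. Like that of the other gene called, it was also lost without replicates 1 and 4 (-0.84) and with the *Xist* level as a covariate (-1.18). The second was *Bgn*, which encodes biglycan, a small proteoglycan that binds tropoelastin. It went from 681 ± 88.1 to 549 ± 14 CPM (log2 fold change -0.31, SE 0.07, adjusted p = 0.0413). Its call was lost in 8 of the 10 fits that left out 1 library, with estimates of -0.32 to -0.26 and adjusted p up to 0.117. *Bgn* lies on chromosome X, and with the *Xist* level as a covariate it was at -0.35.

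None of the 5 lysyl oxidase family genes, whose enzymes crosslink elastin, was called, and all 5 estimates were negative (median -0.20). *Loxl1*, which is required for elastic fibre upkeep, was at -0.21 on the log2 scale (adjusted p = 0.14, edgeR). Of the 7 genes for latent TGF-β binding proteins and TGF-β, 1 (*Ltbp2*) was lower, and the median was -0.14. *Tgfb1* was at -0.25 (adjusted p = 0.0898, edgeR) and *Tgfb2* at 0.17 (adjusted p = 0.222). Of 18 other genes for microfibril or elastin associated proteins, 1 (*Bgn*) was lower, and the median was -0.07. The nearest that were not called were *Emilin3*, an emilin glycoprotein gene, at -0.27 (adjusted p = 0.0706), and *Dcn*, for the proteoglycan decorin, at -0.29 (adjusted p = 0.0748).

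Over all tested genes, 2.65% were called and 16.2% had edgeR p under 0.05 unadjusted, in either direction. Among 9 genes for ADAMTS family proteins that act on microfibrils, 0 were called and 3 had edgeR p under 0.05 unadjusted. *Adamts17* was at 0.21 (adjusted p = 0.15, edgeR) and *Adamtsl5* at -0.36 (adjusted p = 0.151). None of 8 integrin genes was called, with 1 under 0.05 unadjusted, and *Itgb1*, the common beta chain, was at -0.09 (adjusted p = 0.167). None of the 9 tested genes of the elastin receptor and the elastases was called, with 5 under 0.05 unadjusted, and *Mmp9*, a gelatinase that cuts elastin, was at -0.47 (adjusted p = 0.179). The elastase genes *Mmp7* and *Mmp12* had 0 CPM in all libraries and *Elane* at most 1.66, and these 3 were not tested. Of the 3 furin-type genes, whose proteases trim profibrillin, 0 were called, with 0 under 0.05 unadjusted and a median of 0.02. Without WT replicate 4, 12 genes of the 7 lists were called lower and 0 higher, among them *Loxl1*, *Ltbp3*, *Ltbp4*, *Tgfb1*, *Emilin3*, *Hspg2*, *Fn1* and *Mmp2*, beside the 2.87% of all tested genes called lower.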

How the data were processed

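The authors trimmed the reads with fastp, checked them with FastQC 0.12.1, aligned them to GRCm39 with STAR 2.7.11a and counted them per gene with featureCounts 2.0.6, and deposited 1 table of raw counts per Ensembl gene for the 10 libraries. The annotation release and the strand and multimapping settings are not given in the sources used here, and the labels and the study's methods name different library kits. Symbols came from GENCODE vM39, which left 0.111% of counts without a symbol. The study describes independent embryos, and states that replicates were siblings taken from separate litters.

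Counts were filtered by edgeR's filterByExpr, scaled by TMM and tested with edgeR 4.0.16 (R 4.3.3) quasi-likelihood fits of genotype on all 10 libraries, with Benjamini-Hochberg adjustment over 16426 genes. The biological coefficient of variation was 0.113. SEs were the log2 fold change over the root of F. CPM are TMM-scaled, log2 values use a prior count of 2, and within-library count ratios went through exact permutation tests, two-sided. Members are described in full, and pathway genes are named if called or of smallest p in their list. Members and lists were chosen with earlier results of these data known. DESeq2 1.42.0, limma 3.58.1 and the other alternatives are given at the close, and the fits were tested on simulated counts. Intervals and p-values reflect the spread between these libraries. No 2 libraries of the same genotype agreed within sampling noise. A gene ranked by likeness to *Mfap5* is not reported here.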

Additional observations from a re-analysis of the deposited data

Results flagged for a closer look

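In mEC1dup/dup, *Fbln5* had 1 library far from the others: replicate 1 measured 198 CPM and the next highest library 160. The gap took 0.844 of the group's range, above Dixon's critical value of 0.71 for 5 samples. It was the only one of 28 groups of values so marked, and chance marks about 1 in 20 groups.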

How the results depend on the processing

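The direction of *Eln*, both fibrillins and all fibulins was the same in every alternative but the globin covariate. No member was called lower under DESeq2 size factors, upper quartile scaling, total counts alone, limma-voom, at least 10 counts in every library, an adjusted p of at most 0.01 or no log2 CPM threshold. With 2 other tests or with no filter, 1 member was called: *Mfap5*, by the DESeq2 Wald test (-0.51), the edgeR likelihood ratio test (-0.51) and with no filter (-0.51). limma-voom with sample quality weights called 2 members, *Eln* (-0.35) and *Mfap5* (-0.61). Genes of the 7 pathway lists called lower were 2 in the report, 6 by DESeq2, 5 by the likelihood ratio test, 5 with no filter, 9 with quality weights and 0 at an adjusted p of at most 0.01. All genes called lower and higher were 298 and 137 in the report, 510 and 321 by DESeq2 and 448 and 219 by the likelihood ratio test. They were 584 and 309 with quality weights and 62 and 16 at an adjusted p of at most 0.01. With no filter they were 329 and 132 of 29467 genes tested. With total counts alone the lower share of calls was 60.1%, against 68.5%. The cause of these differences was not tested.

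Replicate numbers gave the libraries no known pairing. Same-numbered libraries correlated from -0.0642 to 0.428 in their deviations (mean 0.23), with 4 of 5 over 0.1. Libraries of other numbers had a mean of -0.057, with 7 of 20 over 0.1. Of the mEC1dup/dup libraries, 2 of 5 correlated best with their own number. With the replicate block, 2 members were called lower, *Eln* (-0.27) and *Mfap5* (-0.53), with 5 pathway genes and 488 genes in all called lower. The *Mfap5* to *Mfap2* log2 ratio stayed -0.58, with an exact sign-flip p of 0.0625, the smallest that 5 pairs allow.

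With the *Xist* level as a covariate, 0 members were called, *Mfap2* was at -0.04 and the members' median was -0.22. Pathway genes called lower were then 0, with *Ltbp2* at -1.18 and *Bgn* at -0.35, and all genes 1 lower and 2 higher. *Mfap5* was at -0.42 and *Eln* at -0.31. Without the 3 mEC1dup/dup libraries of most *Xist* counts, 0 members and 0 pathway genes were called and the median was -0.23, with 0 genes in all lower and 1 higher. In a fit chosen after seeing the data, without mEC1dup/dup replicates 1 and 4, 0 members and 0 pathway genes were called (*Ltbp2* -0.84, *Bgn* -0.31), the *Mfap5* to *Mfap2* log2 ratio was -0.58, and 105 genes in all were lower and 42 higher. With the embryonic share of globin counts as the covariate, which separates the genotypes completely, 0 members, 0 pathway genes, and 0 genes in all lower or higher were called (adjusted p of the reversed members 0.898 to 0.927). That fit cannot tell the share from genotype. *Hmx1* itself was at 0.34 in it (adjusted p = 0.921, edgeR), against 1.31 with no covariate. Log2 fold changes were then 0.54 for *Eln*, 0.44 for *Fbn1*, 0.45 for *Fbn2*, 0.69 for *Fbln1*, 0.77 for *Fbln2*, 0.33 for *Fbln5*, 0.39 for *Efemp2* and 0.20 for *Mfap4*. Outside the members they were 0.48 for *Loxl1*, 1.73 for *Loxl4*, 0.08 for *Loxl3*, 0.30 for *Ltbp2*, 0.20 for *Tgfb1*, 0.33 for *Bgn*, 0.26 for *Emilin3* and 0.17 for *Dcn*. They were 0.59 for *Adamtsl5*, -0.15 for *Adamts6*, 0.01 for *Itgb1*, 0.20 for *Itgav*, 0.42 for *Mmp2* and 0.52 for *Pcsk6*.

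Leaving out each library in turn gave log2 fold changes of -0.39 to -0.23 for *Eln*, -0.24 to -0.11 for *Fbn1*, -0.31 to -0.18 for *Fbn2*, -0.28 to -0.12 for *Fbln1* and -0.22 to -0.08 for *Fbln2*. The ranges were -0.19 to -0.08 for *Fbln5*, -0.12 to -0.04 for *Efemp2*, -0.00 to 0.08 for *Mfap2*, -0.07 to 0.01 for *Mfap4* and -0.62 to -0.43 for *Mfap5*. *Pcsk5* ran from -0.01 to 0.05. The *Mfap5* to *Mfap2* log2 ratio ran from -0.68 to -0.49. Members called lower ran from 0 to 6, pathway genes called lower from 0 to 12, all genes lower from 120 to 476 and all genes higher from 34 to 179. With 5 libraries a group and 17461544 counts or more a library, *Mfap5*, at 201 to 414 counts, was the member with the fewest counts.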
